A study of Mus musculus with 6 samples.

Results

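The 8 mRNAs described here are known to be controlled through a 5′ terminal oligopyrimidine (TOP) motif and encode neither ribosomal proteins nor elongation factors. They were followed through the RNA immunoprecipitation (IP) of LIN28B. The members were Tpt1, Naca, Btf3, Rack1, Pabpc1, Pabpc4, Nap1l1 and Vim, and each was found by its symbol as 1 row among the 54752 genes with deposited values. LIN28B is an RNA-binding protein of fetal and neonatal cells. Bone marrow cells of adult tet-LIN28B mice and of a littermate control grew for 5 days in IL-7 (20 ng/mL), which expands B cell progenitors, and in doxycycline (Dox), whose concentration is 0.1 mg/mL in the labels and the same figure in µg/mL in the methods. Anti-FLAG IP and input RNA were then sequenced from 2 tet-LIN28B mice and 1 control, 6 libraries in all. The tet-LIN28B mice carry 1 copy of a Col1a tetO allele with a FLAG-tagged human LIN28B cDNA and the Rosa26 rtTA allele, and the control carries only the Rosa26 rtTA allele, so that both genotypes received Dox and only the tet-LIN28B cells hold the tagged protein. With 1 control mouse, the spread of the control is not measured.

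TOP mRNAs begin at the cap with a C that runs on into an unbroken stretch of pyrimidines. Growth signals that pass through mTORC1 switch their translation on, and when mTORC1 is off the cap-binding protein LARP1 holds them back as a group. Most encode the translation machinery, so that a cell tunes its ribosomes and their helpers together. The members described here work around the ribosome (Naca, Btf3, Rack1, Tpt1), on the poly(A) tail (Pabpc1, Pabpc4), on histones (Nap1l1) or in the cytoskeleton (Vim).

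The starts of 7 members, all but Pabpc1, are shown because the TOP motif is what the members have in common by name. Each line gives the first 30 bases of an annotated transcript on its own strand, 5′ to 3′, with the leading C and the pyrimidines that follow it without a break in capitals. Those of Rack1, Nap1l1 and Btf3 are the same in RefSeq (GRCm38.p6) and GENCODE M21 (GRCm38), Tpt1 and Naca are from GENCODE, and Vim and Pabpc4 are from RefSeq. Where annotated starts differ, the one with the longer run is shown, except for Pabpc4, whose run of 5 opens only a processed transcript far upstream.
Rack1, chr11:48800360-48800389 (+): CTTTTTCTCCacagggtcgtggtggcagcc
Nap1l1, chr10:111473227-111473256 (+): CTTTTTTagcgccatctgctcgcggcgccg
Tpt1, chr14:75845331-75845360 (+): CTTTTCCgcccgctcccccctccccccgcg
Vim, chr2:13574311-13574340 (+): CTCTgccactcttgctccgggaccccagag
Naca, chr10:128035635-128035664 (+): CTCgctcgttctctttctgccgccatcttg
Btf3, chr13:98316938-98316967 (-): CTTgcgtccccgcgtgtgtgcgccttctct
Pabpc4, chr4:123282911-123282940 (+): gaaaagaagaggaaaaaaaaaagcaaaagg

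Among the starts shown, the pyrimidine run had 10 bases in Rack1 and 7 each in Nap1l1 and Tpt1. At the start of the main GENCODE transcript, defined below, the run had 10 bases in Rack1, 3 in Tpt1 and 0 in Nap1l1. At the RefSeq start it had 0 bases in Tpt1 and 7 in Nap1l1. Searched on the transcript strand only, a C followed by at least 4 bases that are each C or T opened at least 1 annotated GENCODE transcript of 4 of these 7 genes, against 14.8% of the 1335 protein-coding genes passing the expression filter, 42.7% of 82 cytosolic ribosomal protein genes and 8.5% of all 21923 protein-coding genes. For Tpt1 that transcript is a retained-intron model and for Pabpc4 a processed transcript, and genes with more annotated transcripts had more chances to match. Among RefSeq starts, Rack1 and Nap1l1 matched, 2 of 7 members, against 3.0% of 27025 genes. Annotated starts are not measured starts, and a missing run says only that these letters are not at that start.

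The 6 libraries summed to between 1144868 and 1384941 FPKM, which are read fragments scaled to transcript length and library size and hold no counts, so the depth is unknown. The filter asked for at least 50 FPKM in the IP and the input of each tet-LIN28B mouse, and 1460 genes passed it, all 8 members among them. It follows the methods of the study. B cell progenitor markers summed to 6964 and 8198 FPKM in the inputs of tet-LIN28B mice and 8144 FPKM in the control input, while markers of stromal cells summed to at most 1.17 FPKM in any library. Markers of myeloid cells summed to 7443 and 4657 FPKM in the inputs of tet-LIN28B mice and 6403 FPKM in the control input, and all 10 were at 1 FPKM or more. Nearly all of each sum came from S100a8, S100a9 and Lyz2. The other myeloid markers had at most 11.16 FPKM in any input (Cd68, first tet-LIN28B mouse). These sums do not give shares of cells, and the study reports that B cells made up most of such cultures. The mouse Lin28b row, at 0.62 and 1.03 FPKM in the inputs of tet-LIN28B mice, against 0.01 FPKM in the control input, does not measure the human transgene. In their last line the sample descriptions give the fraction opposite to that in the titles. The titles, which match the column names, were followed.

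Before the IP, the members ran from the 4.0th to the 97.1st percentile of input level among kept genes. Tpt1, which encodes the translationally controlled tumor protein, was the most abundant, at 4965 and 4457 FPKM in the inputs of tet-LIN28B mice, against 4893 FPKM in the control input. Rack1, a scaffold on the small ribosomal subunit, followed at 2045 and 1881 FPKM in the inputs of tet-LIN28B mice, against 2019 FPKM in the control input. In all 3 inputs both stood clear of every other member.

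The next members could not be ordered. Naca and Btf3 encode the alpha and beta subunits of the nascent polypeptide-associated complex, a heterodimer at the ribosome exit. Naca had inputs of 1317 and 1563 FPKM in tet-LIN28B mice and 1653 FPKM in the control. Btf3 had inputs of 1107 and 1493 FPKM in tet-LIN28B mice and 1319 FPKM in the control. Pabpc1, the main cytoplasmic poly(A)-binding protein, lay within the range of Naca, with inputs of 1464 and 1442 FPKM in tet-LIN28B mice and 1480.4 FPKM in the control.

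Nap1l1, a histone chaperone of the nucleosome assembly protein family, had inputs of 205 and 229 FPKM in tet-LIN28B mice and 213 FPKM in the control. Vim, the intermediate filament protein vimentin, had inputs of 115 and 167 FPKM in tet-LIN28B mice and 181 FPKM in the control. Pabpc4, a paralog of Pabpc1 first described in activated T cells, had the lowest level, with inputs of 58.4 and 61.8 FPKM in tet-LIN28B mice and 54.9 FPKM in the control, the 4.0th percentile of the kept genes. Each of these 3 was separated from its neighbours in the order.

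**Figure D1:**
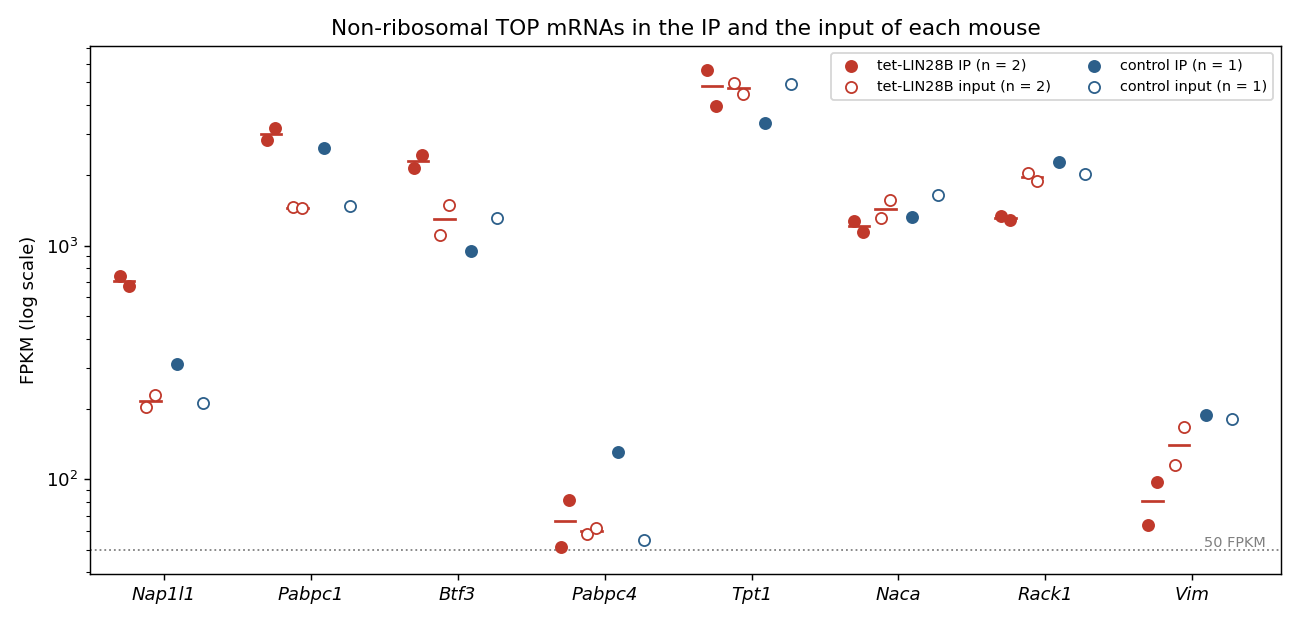
FPKM (log scale, vertical axis) of each member in the tet-LIN28B IPs (filled red points, n = 2), the tet-LIN28B inputs (open red points, n = 2), the control IP (filled blue point) and the control input (open blue point), with bars at the tet-LIN28B means and a dotted line at the 50 FPKM filter. IP points lie clearly above the input points for Nap1l1, Pabpc1 and Btf3 in tet-LIN28B mice, and Pabpc4 lies closest to the filter.

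The input levels gave no call between genotypes. On the log2(FPKM + 1) scale the differences, tet-LIN28B minus control, lay between -0.38 for Vim (standard error 0.29) and 0.13 for Pabpc4 (standard error 0.13). None of the 8 passed limma, with adjusted p from 0.849 to 0.977, nor did any other of the 12576 genes whose inputs averaged 1 FPKM or more (0.0%), while 680 genes (5.41%) had an unadjusted p under 0.05. This does not show equal levels. The Vim inputs of the tet-LIN28B mice differed from each other by more than the second of them differed from the control. In bulk RNA fewer cells of a type and less RNA per cell cannot be told apart, and the part of the myeloid cells, whose marker sum was highest in the mouse with the lowest Vim input, was not tested.

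Nap1l1 had the highest IP/input ratio of the 8, Pabpc1 and Btf3 were also higher in the IP, and Rack1 and Vim were lower in the IP than in the matching input, all in tet-LIN28B mice. For the test, the log2 ratio of IP to input, each with 1 FPKM added, was taken within each mouse and fitted with limma across the 1460 genes, with p-values adjusted by Benjamini-Hochberg and called under 0.05. By this test 3 of 8 members were higher in the IP, against 35.8% of all genes tested, and 2 were lower, against 35.1%. Naca, Tpt1 and Pabpc4 passed in neither direction. The ratios of both mice fell on opposite sides of 1 for 2 members, Tpt1 and Pabpc4, against 9.59% of all genes tested. In the control mouse, where no tagged protein is made, 2 members had a ratio above 1.5, Pabpc1 and Pabpc4, against 7.81%.

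Relative to the control, Nap1l1 and Btf3 were higher and Pabpc4 and Vim lower, while Pabpc1, Tpt1, Naca and Rack1 did not pass. That is 2 members higher, against 23.2% of all genes tested, and 2 lower, against 22.2%, so neither count stands far from the background. With 50 FPKM asked of the inputs alone, 2 were again higher, against 14.0% of 2045 genes, and 2 lower, against 32.6%. The tet-LIN28B ratios of both mice lay above the control ratio for 4 members (46.9% of all genes) and below it for 3 (40.7%), and for Naca they lay on both sides (12.4%). The median log2 difference from the control was 0.15 over the 8 members. Over the 2045 genes with only the inputs filtered, which keeps genes low in the tet-LIN28B IPs, it was -0.354. Over all 1460 genes tested it was 0.07. With FPKM scaled to a common sum (TPM) or each mouse centred on its median, the median over all genes was -0.09 and -0.07, and the calls over all genes were 239 higher and 366 lower, and 246 higher and 367 lower, in place of 339 higher and 324 lower.

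The fit had 1 residual degree of freedom per gene, so limma took each standard error from all genes of similar level and none from how well both mice agreed on the gene itself. The single control mouse is taken to spread as much as those of the other genotype. Without the mouse as a replicate block, 0 members were higher and 0 lower than the control at the same threshold (limma, adjusted p = 0.0571 for Nap1l1, 0.0702 for Btf3, 0.0959 for Pabpc4 and 0.235 for Vim). With every gene above 0 in all libraries tested, the call was kept for Nap1l1 (0.0481) and lost for Btf3 (0.052), Pabpc4 (0.0676) and Vim (0.0807).

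**Figure D2:**
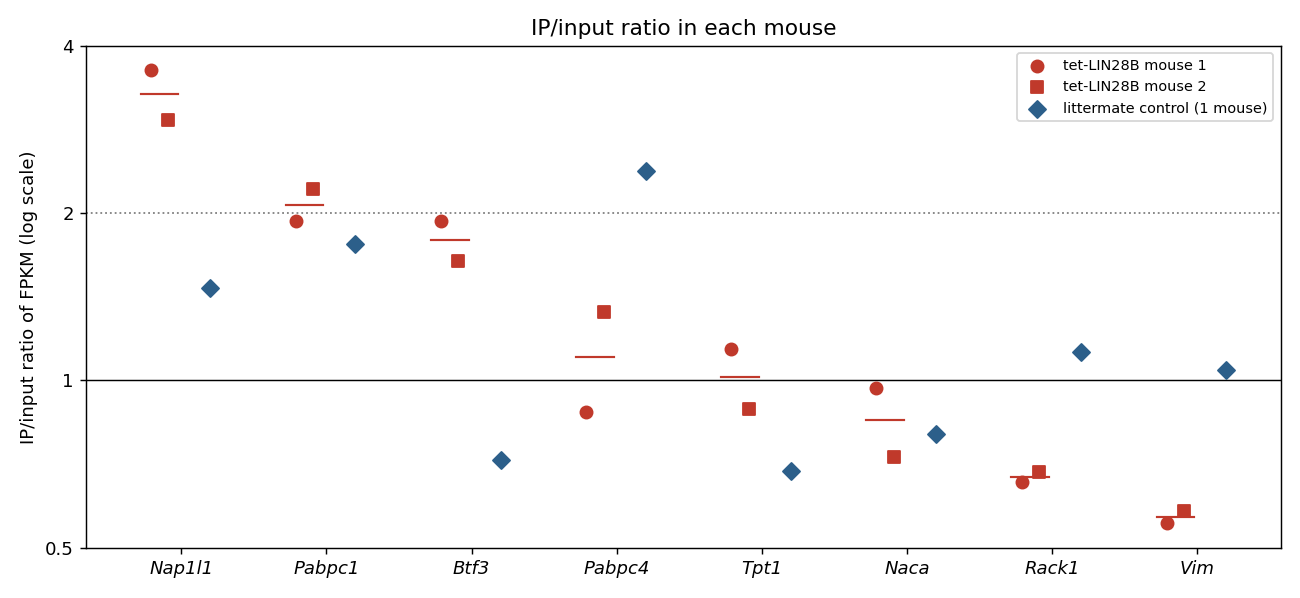
IP/input ratio of FPKM (log scale, vertical axis) for each member in both tet-LIN28B mice (red circle and square, with a bar at their mean) and in the littermate control (blue diamond, 1 mouse); the solid line marks 1 and the dotted line 2. Nap1l1 and Btf3 lie above their control point in both mice, Pabpc4, Rack1 and Vim lie below it, and the Pabpc1 ratios lie close to the control ratio of 1.76.

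Nap1l1 lies on chromosome 10 of GRCm38 from 111473223 to 111498150 and is the member whose printed start runs CTTTTTT. It measured 740.0 and 674 FPKM in the tet-LIN28B IPs and 205 and 229 FPKM in the inputs of the same mice, against 312 FPKM in the control IP and 213 FPKM in the control input. The ratios were 3.61 and 2.95 in the tet-LIN28B mice, against 1.47 in the control, so both mice lay well above the control and all 3 mice were above 1. The average tet-LIN28B ratio was 3.28 ± 0.471 (SD, n = 2), at the 97.3rd percentile of all genes tested on the log2 scale. Against the input the log2 ratio was 1.70 (standard error 0.18, limma, adjusted p = 6.17e-19). The log2 difference from the control was 1.15 (standard error 0.32, limma, adjusted p = 0.00131), or 2.22-fold on the scale with 1 FPKM added.

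Sequence shared with other genes touches this value. Of the 50-mers of the main Nap1l1 transcript, 25.2% also occur in transcripts of 16 other genes, and Gm4204, a processed pseudogene with most of these, had ratios of 2.42 and 2.38 in tet-LIN28B mice, against 1.66 in the control. With FPKM times length summed over Nap1l1 and these genes, the log2 difference was 0.86 (adjusted p = 0.0229 from limma). That sum also takes in well expressed genes with few shared 50-mers, such as Tyms, which encodes thymidylate synthase and shares 3, so it does not measure shared sequence alone. Over the log2 ratios of the 3 mice, the genes nearest to Nap1l1 were the processed pseudogene Gm8430, Rpl13a, a protein of the large ribosomal subunit, and the splicing factor Srsf3, at Euclidean distances of 0.119, 0.135 and 0.164.

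Nap1l4, a relative of Nap1l1, was below the filter. It had ratios of 1.22 and 1.37 in tet-LIN28B mice, against 1.14 in the control, and was not tested. Of 14 relatives and other histone chaperones listed, 5 were tested, and 5 of these were higher in the IP (35.8% of all genes tested) and 4 higher than in the control (23.2%). Genes under 50 FPKM in either tet-LIN28B IP are removed by the filter and could not enter these counts. With 50 FPKM asked of the inputs alone, 7 were tested, of which 4 were higher (14.0% of all genes tested) and 2 lower (32.6%) than in the control. The 2 were the histone H3-H4 chaperones Asf1a, with a log2 difference of -2.20 (limma, adjusted p = 1.67e-10), and Asf1b, with one of -1.77 (limma, adjusted p = 0.0363). Nasp, a chaperone of linker and core histones, was the highest at 2.84 ± 0.455 (SD, n = 2) against 0.823 in the control.

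Of the nascent polypeptide-associated complex subunits, Btf3 passed against the control and Naca did not. Btf3, on chromosome 13 from 98309896 to 98317006, measured 2143 and 2453 FPKM in the tet-LIN28B IPs and 1107 and 1493 FPKM in the inputs of the same mice, against 947 FPKM in the control IP and 1319 FPKM in the control input. Its ratios of 1.94 and 1.64 in both tet-LIN28B mice stood above the control ratio of 0.718, which was under 1. The log2 ratio against the input was 0.83 (standard error 0.21, limma, adjusted p = 0.000147). The log2 difference from the control was 1.31 (standard error 0.36, limma, adjusted p = 0.00131), 2.48-fold, at the 92.4th percentile of all genes tested.

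Naca, on chromosome 10 from 128035575 to 128048637, measured 1278 and 1140.3 FPKM in the tet-LIN28B IPs and 1317 and 1563 FPKM in their inputs, against 1326 FPKM in the control IP and 1653 FPKM in the control input. Its ratios of 0.970 and 0.729 in both tet-LIN28B mice had the control ratio of 0.802 between them. The log2 difference was 0.07 with a 95% interval from -0.64 to 0.78 (limma, adjusted p = 0.892), which leaves room for a change of either sign. Within a mouse, the log2 ratio of Btf3 minus that of Naca was 1.00 and 1.17 in the tet-LIN28B mice, against -0.16 in the control, a contrast that was not tested.

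Both subunits have copies with shared sequence. Of the Naca 50-mers 65.0% occur in other genes, mostly in the processed pseudogene Gm6863, which had ratios of 0.27 and 0.312 in tet-LIN28B mice, against 1.03 in the control at inputs of at most 43.4 FPKM. Of the Btf3 50-mers 30.4% are shared, and Gm3531, the copy with most of them, reached at most 16.0 FPKM. Btf3l4, a paralog of Btf3, measured 14.2 and 31.45 FPKM in the tet-LIN28B IPs and 82.7 FPKM in the control IP, below the filter. In the fit that asked for 50 FPKM of the inputs alone, it was lower than in the control, with a log2 difference of -1.46 (standard error 0.52, limma, adjusted p = 0.0137). Of 12 listed partners at the nascent chain 5 were tested, of which 5 were higher in the IP (35.8% of all genes tested) and 3 higher than in the control (23.2%), again without partners low in the IP. With the inputs alone filtered, 6 were tested, with 3 higher (14.0%) and 1 lower (32.6%) than in the control, the last being Btf3l4. Metap2, which removes the first methionine of new proteins, had the highest ratio, 2.42 ± 0.0609 (SD, n = 2) against 1.17 in the control.

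Of the poly(A)-binding protein paralogs, Pabpc4 was lower than the control and Pabpc1 did not pass. Pabpc1, on chromosome 15 from 36595661 to 36609668, measured 2835 and 3189 FPKM in the tet-LIN28B IPs and 1464 and 1442 FPKM in their inputs, against 2605 FPKM in the control IP and 1480.4 FPKM in the control input. All 3 IPs were high and all 3 inputs nearly level. The ratios were 1.94 and 2.21 in tet-LIN28B mice, against 1.76 in the control, whose value stood at the 96.2nd percentile of control ratios. The average tet-LIN28B ratio of 2.07 ± 0.195 (SD, n = 2) was above 2, as for Nap1l1 and for 16.3% of all genes tested. Its log2 ratio against the input was 1.05 (standard error 0.22, limma, adjusted p = 3.15e-06), but the log2 difference from the control was 0.23 with a 95% interval from -0.50 to 0.97 (limma, adjusted p = 0.652).

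Pabpc4, on chromosome 4 from 123262351 to 123298925, has a RefSeq start rich in A rather than in pyrimidines. It measured 51.2 and 82.0 FPKM in the tet-LIN28B IPs and 58.4 and 61.8 FPKM in their inputs, against 131 FPKM in the control IP and 54.9 FPKM in the control input. The tet-LIN28B ratios of 0.877 and 1.33 fell on opposite sides of 1, while the control ratio of 2.38 was at the 98.9th percentile of control ratios. The log2 difference was -1.13 (standard error 0.29, limma, adjusted p = 0.00062), 0.458 times the control value. This call rests on a high control IP from 1 mouse, and 51.2 FPKM in the first tet-LIN28B IP lies just inside the filter.

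Of the Pabpc4 50-mers 74.7% recur in other genes, nearly all in Gm10110, which stayed at or below 2.91 FPKM in each library. Of 12 listed partners of poly(A)-binding proteins 4 were tested, with 2 higher (35.8% of all genes tested) and 2 lower (35.1%) in the IP and 2 higher (23.2%) and 0 lower (22.2%) than in the control. With the inputs alone filtered, 5 were tested, with 1 higher (14.0%) and 1 lower (32.6%). There Eif4g2, a relative of the scaffold eIF4G, lost its call (limma, adjusted p = 0.058), and Gspt1, the release factor eRF3, had a log2 difference of -1.03 (limma, adjusted p = 0.0223). Btg1, a protein that recruits deadenylases, was at 2.28 ± 0.582 (SD, n = 2) against 0.951 in the control, and Paip2, an inhibitor of poly(A)-binding protein, at 0.570 ± 0.110 (SD, n = 2) against 0.595.

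Tpt1 and Rack1, the 2 most abundant members, did not pass against the control. Tpt1, on chromosome 14 from 75845093 to 75848525, measured 5645 and 3960 FPKM in the tet-LIN28B IPs and 4965 and 4457 FPKM in their inputs, against 3355 FPKM in the control IP and 4893 FPKM in the control input. Its ratios were 1.14 and 0.888 in tet-LIN28B mice, against 0.686 in the control, so both mice were above the control but not on the same side of 1. The log2 difference was 0.55 with a 95% interval from -0.23 to 1.33 (limma, adjusted p = 0.264).

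Tpt1 shares 42.0% of its 50-mers with other genes, above all with the processed pseudogene Tpt1-ps3 on chromosome 6 from 99877816 to 99878334. That row measured 234 and 247 FPKM in the tet-LIN28B IPs and 1089 and 1127 FPKM in their inputs, against 773 FPKM in the control IP and 1359 FPKM in the control input. The log2 ratio of Tpt1 exceeded that of Tpt1-ps3 by 2.40 and 2.01 in the tet-LIN28B mice and by 0.27 in the control. The pseudogene row had a log2 difference from the control of -1.39 (standard error 0.34, limma, adjusted p = 0.000243), opposite in sign to that of Tpt1. How RSEM split reads between both rows cannot be seen in the deposited values. With the FPKM of the Tpt1 pseudogene rows added to Tpt1, the log2 IP/input ratio of the tet-LIN28B mice became -0.225, against 0.01 without them. The difference from the control became 0.37 (adjusted p = 0.482 from limma). That sum ignores length and gives too much weight to Tpt1-ps3, whose transcript has 519 nt, against 1169 nt for Tpt1. With FPKM times length summed over Tpt1 and the genes sharing its 50-mers, the ratio was -0.104. The difference was then 0.468 (adjusted p = 0.358 from limma).

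Rack1, on chromosome 11 from 48800332 to 48806434, opens with the run of 10 pyrimidines shown above. It measured 1344 and 1287 FPKM in the tet-LIN28B IPs and 2045 and 1881 FPKM in their inputs, against 2272 FPKM in the control IP and 2019 FPKM in the control input. The ratios of 0.657 and 0.684 in tet-LIN28B mice were close together and below the control ratio of 1.125. Against the input the log2 ratio was -0.58 (standard error 0.21, limma, adjusted p = 0.0108), a call lost with every gene above 0 tested (0.0544). Against the control the log2 difference was -0.75 (standard error 0.37, limma, adjusted p = 0.0861), and it passed with TPM scaling and with median centring (adjusted p = 0.0224 and 0.0421). Only 0.9% of its 50-mers occur in another gene.

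Vim, on chromosome 2 from 13573927 to 13582826, measured 63.8 and 96.9 FPKM in the tet-LIN28B IPs and 115 and 167 FPKM in their inputs, against 188 FPKM in the control IP and 181 FPKM in the control input. The levels differed between both tet-LIN28B mice, while the ratios of 0.555 and 0.582 lay close together, against 1.04 in the control. Its log2 ratio against the input was -0.81 (standard error 0.17, limma, adjusted p = 5.94e-06). The log2 difference from the control was -0.87 (standard error 0.30, limma, adjusted p = 0.0107), 0.549 times the control value. Of 9 other intermediate filament and lamin genes listed, 0 passed the filter. None of its 50-mers occurs in another gene, 0 of 2144. The nearest genes over the 3 mice were Akr1a1, an aldehyde reductase, Cks1b, a subunit of cyclin-dependent kinases, and Mrpl28, a mitochondrial ribosomal protein, at distances of 0.071, 0.091 and 0.118.

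Vimentin is also made by myeloid and stromal cells. Myeloid markers, all 10 of 10 in the table, summed to 2528 and 1671 FPKM in the tet-LIN28B IPs and 2779 FPKM in the control IP, lower than in each matching input. Of the 3 myeloid markers tested, 2 were lower than in the control (22.2% of all genes tested). Lyz2 had ratios of 0.173 and 0.245 in tet-LIN28B mice, against 0.587 in the control. S100a8 had 0.198 and 0.164 in tet-LIN28B mice, against 0.423 in the control. The other, S100a9, had 0.483 and 0.534 in tet-LIN28B mice, against 0.424 in the control (log2 difference 0.26, limma, adjusted p = 0.615). Of 5 B cell progenitor markers tested, 4 were lower (22.2% of all genes tested) and 1 was higher (23.2%) than in the control. Their median log2 difference was -1.36, against -1.23 for the 3 myeloid markers. A lower ratio was thus not particular to the myeloid markers. The part of myeloid cells in the Vim result was not tested. Of the stromal markers Col3a1, Pdgfrb, Dcn and Lum were listed at 0 in the 6 libraries.

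**Figure D3:**
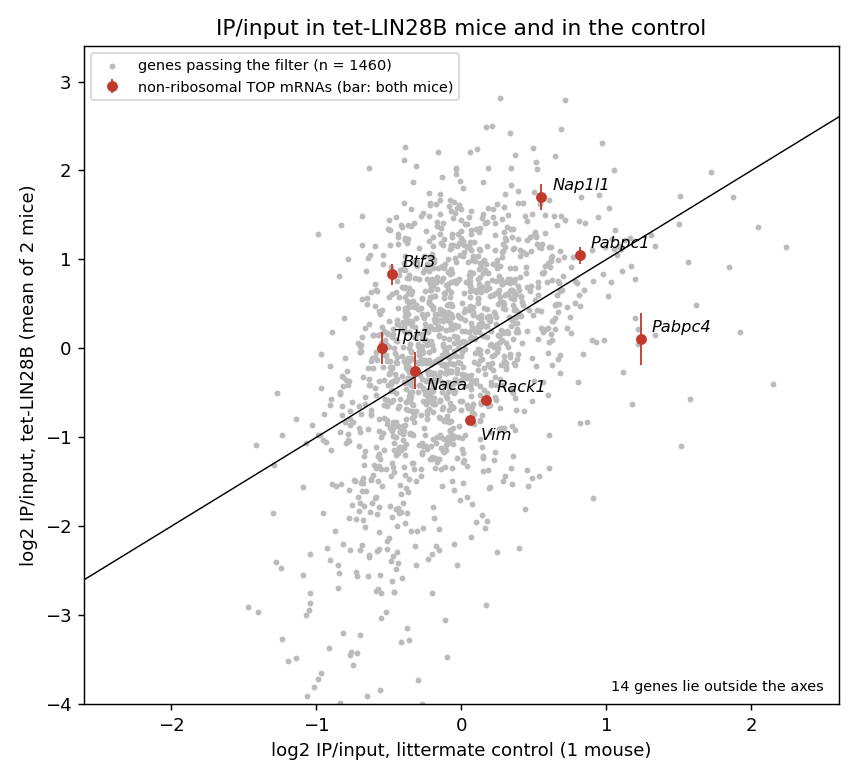
Log2 IP/input in tet-LIN28B mice (mean of 2, vertical axis) against that in the littermate control (1 mouse, horizontal axis) for the 1460 genes passing the filter (grey) and the 8 members (red, with bars that span both mice); the diagonal marks equal values, and 14 genes lie outside the axes. The members lie on both sides of the diagonal, with Btf3 and Nap1l1 above it and Pabpc4 farthest below.

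As a group the 8 mRNAs took up 1.116% and 1.045% of the FPKM in the tet-LIN28B IPs and 0.852% and 0.828% in the inputs of those mice, against 0.973% in the control IP and 0.853% in the control input. Their median ratio was 1.06 in tet-LIN28B mice, against 1.08 in the control, and that of all genes tested was 1.02 in tet-LIN28B mice, against 0.919 in the control. Of 10 other TOP mRNAs for elongation and initiation factors and the like that were tested, 7 were higher in the IP (35.8% of all genes tested) and 0 lower (35.1%), and against the control 4 were higher (23.2%) and 0 lower (22.2%), with a median log2 difference of 0.26. Eef1b2, an exchange factor for eEF1A, was the highest at 4.56 ± 0.843 (SD, n = 2) against 1.29 in the control, and Eef1g, another subunit of that factor, was at 2.37 ± 0.480 (SD, n = 2) against 2.06. The 82 cytosolic ribosomal protein mRNAs, also TOP mRNAs, included 24 that were higher (23.2% of all genes tested) and 19 that were lower (22.2%) against the control, around a median log2 difference of 0.24. With 50 FPKM asked of the inputs alone, 24 of the 82 were again higher than in the control (14.0% of 2045 genes) and 19 lower (32.6%). Of the 10 other TOP mRNAs, 4 were again higher and 0 lower. The difference between these lists was not tested.

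**Figure D4:**
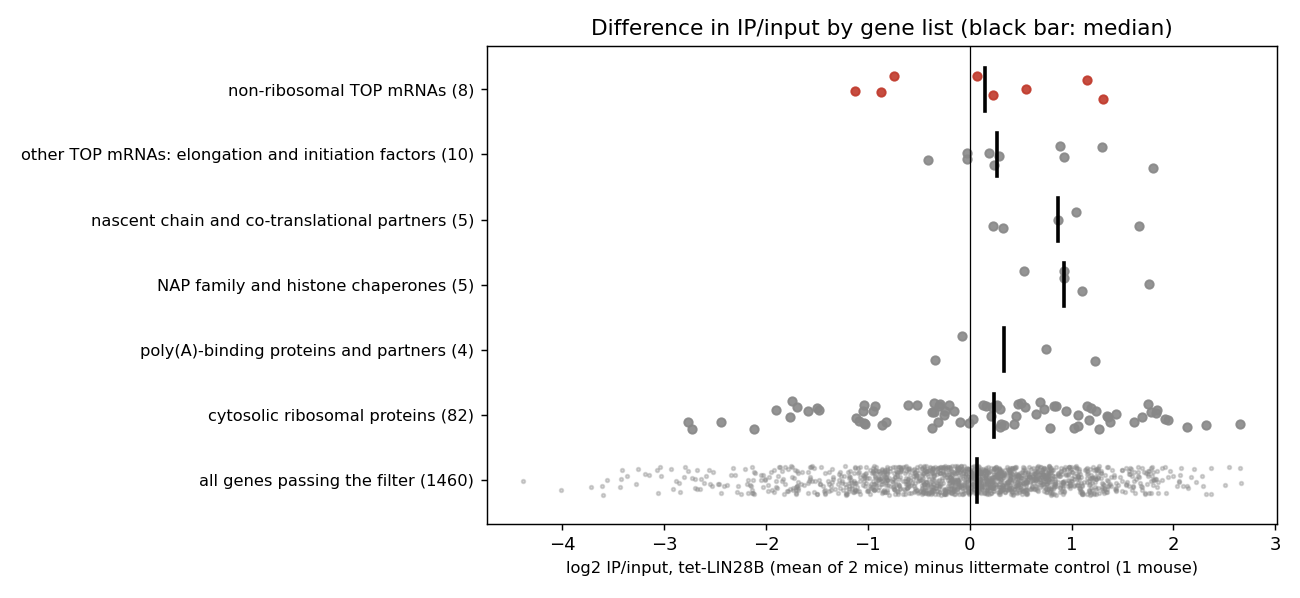
Log2 IP/input in tet-LIN28B mice (mean of 2) minus that in the littermate control (1 mouse) on the horizontal axis, for each gene passing the filter (points) in 6 lists and in all 1460 genes, with the number of genes in brackets and the median as a black bar. The 8 non-ribosomal TOP mRNAs run from -1.13 to 1.31 around a median of 0.15, and those of the ribosomal proteins around one of 0.24.

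Sequence features of the main transcripts were compared with those of 1459 kept genes that have 1 gene model. LIN28 proteins are known to bind GGAG through their zinc knuckles. Searched on the transcript strand, overlaps included, GGAG was found in all 8 members and in 98.6% of these genes, so its presence does not set members apart. Its density was 11.0 per kb in Btf3, 9.12 in Vim, 7.70 in Tpt1, 6.29 in Pabpc4, 5.34 in Nap1l1, 4.26 in Pabpc1, 3.39 in Naca and 2.07 in Rack1, around a median of 6.69 over all these genes. Btf3, at the top of this order, and Nap1l1, in its middle, were the 2 members higher than the control, while Vim, second in the order, was lower. The 1459 genes share the same libraries and are not independent. Across them, Spearman's rho between GGAG density and the log2 difference from the control was 0.042. Between transcript length and that difference it was 0.132, and between GC content and that difference -0.204. With the log2 IP/input ratio of the tet-LIN28B mice, rho was 0.081 for GGAG density, 0.28 for length and -0.138 for GC content. Nap1l1 lay at the 90.4th percentile of length and the 5.3rd of GC content, and Btf3 at the 34.1st and the 63.8th. The median log2 difference was -0.15 over 53 genes whose main transcript opens with a pyrimidine run of at least 5 bases and 0.09 over the other 1406.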

How the data were processed

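Anti-FLAG IP and input RNA came from cultured bone marrow of 2 tet-LIN28B mice and 1 littermate control. Per the submitters' processing notes, the authors used STAR 2.7.1, RSEM 1.28 and the mm10 build, and deposited FPKM per gene. As FPKM hold no counts, depth is unknown. Their annotation release was not given in the sources used here. Groups and mice were taken from the sample titles and matched to columns by name. Of 15 library pairs, 0 were identical. The titles call the replicates biological. A figure legend of the study does so too, and describes RNA from 2 tet-LIN28B mice and 1 control mouse as sequenced individually. The study's text calls the replicates technical at one place. They were taken as 2 mice, and only if that place were right would the p-values measure technical spread alone.

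Values were analysed with R 4.3.3, limma 3.58.1 and Python 3.11.15. Genotype was the factor in a limma fit, with a mean-expression trend, to log2((IP + 1)/(input + 1)) per mouse. Taking the ratio within a mouse blocks on the mouse, and replicate deviations of input and IP had a correlation of 0.479 over genes. Inputs were fitted on log2(FPKM + 1). In a single draw of simulated data the fit recovered the sizes of the changes put in. For changes of the smaller size against the control it missed many calls in that draw, and all of those put in as decreases. A single draw does not give the rate at which decreases are missed. The simulated noise was equal for all genes and independent between the input and IP of a mouse, unlike in the measured data. The draw therefore does not show that decreases are harder to call than increases. In the measured data the fit called 324 genes lower than the control. Positions, transcripts and shared 50-mers are those of GENCODE M21, and start sequences also of RefSeq (GRCm38.p6). The main transcript was the best by APPRIS rank, then support level, then length.

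The members and lists were chosen with earlier results of these data known. Named genes are the members, the 2 highest and 2 lowest tested genes of a list (of which some are printed), and the 3 genes nearest to the highest and lowest member. Named outside this rule, after their values were seen, were Nap1l4, Asf1a, Asf1b, Gspt1, Tyms, Btf3l4, Gm6863, Gm3531, Gm4204, Gm10110, Eif4ebp1, Larp1, Larp4b, Tial1 and Rheb. Alternatives changed the pseudocount, filter, scaling, trend, block, threshold and rows summed, and each tet-LIN28B mouse was left out in turn. The sum over genes sharing 50-mers was chosen after seeing the data.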

Additional observations from a re-analysis of the deposited data

Results flagged for a closer look

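A difference between genotypes in the same contrast, IP against input, passed the limma test for 4 members. The log2 difference, tet-LIN28B minus control, was 1.31 for Btf3 (standard error 0.36, adjusted p = 0.00131) and 1.15 for Nap1l1 (standard error 0.32, adjusted p = 0.00131). It was -1.13 for Pabpc4 (standard error 0.29, adjusted p = 0.00062) and -0.87 for Vim (standard error 0.30, adjusted p = 0.0107). Both tet-LIN28B mice lay on the same side of the control for each of the 4. Each comparison has the same 1 control mouse, and of all genes tested 23.2% were higher and 22.2% lower by the same test. No group held the 4 samples needed to look for a sample far from the rest.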

How the results depend on the processing

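With genes above 0 in all 6 libraries tested, 1 member was higher and 0 were lower than the control, in place of 2 and 2, and 1 in place of 2 was lower in the IP than in its input. Without the replicate block 0 members were higher and 0 lower than the control, with adjusted p = 0.0571 for Nap1l1, 0.0702 for Btf3, 0.0959 for Pabpc4 and 0.235 for Vim. In the other 9 tested alternatives the 4 differences from the control kept their sign and their side of the threshold, with values from 0.86 to 1.31 for Btf3 and Nap1l1 and from -1.29 to -0.80 for Pabpc4 and Vim. Rack1 against the control passed with TPM scaling and with median centring (-0.91 and -0.89). Leaving out 1 tet-LIN28B mouse leaves no residual degree of freedom and gave values with no test: 1.19 and 1.43 for Btf3, 1.00 and 1.30 for Nap1l1, -1.42 and -0.83 for Pabpc4, and -0.90 and -0.83 for Vim. The number of members with an average ratio above 2 ran from 1 to 2 when each mouse was left out, and was 1 without the second mouse, where Pabpc1 had 1.94. Signs turned only for values that had not passed. The log2 IP/input ratio of Tpt1 was -0.015 with median centring and -0.225 with the FPKM of its pseudogene rows added regardless of length. It was -0.10 with genes sharing 50-mers added by FPKM times length. The difference of Naca from the control was -0.10 with TPM scaling and -0.076 with median centring, and was -0.14 and 0.28 with 1 mouse left out. With TPM scaling the input differences of Btf3, Rack1 and Pabpc1 were 0.007, 0.002 and 0.017.

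Over all genes, counts moved by more than 1.5 times in places. Higher in the IP were 522 genes, against 1435 with a filter of 10 FPKM and 2146 with values above 0. Lower in the IP were 512, against 1025 when only inputs had to reach 50 FPKM, 1537 with 10 FPKM and 4415 with values above 0. Higher than the control were 339, against 546 with 10 FPKM and 130 without the block. Lower were 324, against 667 with the inputs only, 980 with 10 FPKM, 1446 with values above 0 and 125 without the block. For the inputs 4 genes in place of 0 passed when 50 FPKM was asked of each input. More genes were tested under the wider filters. Asking 50 FPKM of the inputs alone also keeps genes under 50 FPKM in a tet-LIN28B IP, which the main filter removes. There the median log2 IP/input ratios of the tet-LIN28B mice were -0.53 and -0.417, in place of 0.019 and 0.025. Higher in the IP were then 487 genes and higher than the control 287, fewer than under the main filter. Otherwise the cause was not tested. The unknown depth limits what can be said of low values such as Pabpc4.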

Other observations

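The genes that control TOP mRNAs were mostly below the filter. Of 20 such genes 2 were tested, the RNA-binding protein Cnbp, with ratios of 0.656 and 0.588 in tet-LIN28B mice, against 0.855 in the control, and the cap-binding protein Eif4e, with 0.917 and 1.22 in tet-LIN28B mice, against 1.01 in the control. Neither passed against the control by limma (adjusted p = 0.249 and 0.868). Larp1, which binds the cap and the TOP motif, had 19.6 and 20.7 FPKM in the tet-LIN28B IPs and 13.1 and 13.6 FPKM in their inputs, against 26.9 FPKM in the control IP and 13.9 FPKM in the control input. Its relative Larp4b had ratios of 3.97 and 3.43 in tet-LIN28B mice, against 3.42 in the control, so that its IP was high in all 3 mice. Tial1, an RNA-binding protein of stress granules, had ratios of 2.92 and 2.93 in tet-LIN28B mice, against 1.22 in the control.

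When only inputs had to reach 50 FPKM, 5 of the 20 were tested, with 0 higher and 1 lower than in the control, against 14.0% and 32.6% of the 2045 genes tested. The 1 was Eif4ebp1, the mTORC1 substrate that blocks the cap-binding protein. It had 19.2 and 39.6 FPKM in the tet-LIN28B IPs and 132 and 149 FPKM in their inputs, against 156 FPKM in the control IP and 161 FPKM in the control input, a log2 difference of -2.26 (standard error 0.35, limma, adjusted p = 2.95e-09). Rheb, the GTPase that activates mTORC1, had ratios of 0.329 and 0.521 in tet-LIN28B mice, against 0.636 in the control (log2 difference -0.61, adjusted p = 0.139 from limma). The 8 members kept 2 calls higher and 2 lower than the control under this filter.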
